A study of Anopheles gambiae with 8 samples.

Results

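CLIP-domain serine proteases are secreted proteins of the insect blood, and 34 genes of this family in *An. gambiae* were followed through a transcriptome of hormone-treated cells. The members were chosen by gene identifier, 34 of the 13763 genes in the deposited table, without a threshold on any measured value. They comprise 11 CLIPA, 14 CLIPB and 9 CLIPC genes. The table gives identifiers only, and the placing of each identifier in a subfamily follows the usual nomenclature of the species. The study names 4 of them (*CLIPC6*, *CLIPB15*, *CLIPB20* and *SP14D1*, the last counted here with CLIPB), and the other 30 are given by identifier. The RNA came from Sua 4.0, an established *An. gambiae* cell line, 24 h after 20-hydroxyecdysone (20E, a steroid hormone that female mosquitoes make after a blood meal) or after ethanol alone (EtOH), with 4 libraries of each. Sample labels describe the solvent of both groups as 10% ethanol, whereas the study's methods dissolve 20E in undiluted ethanol. A single line without other tissues limits these data to what such cells transcribe in culture.

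CLIP proteases circulate as inactive precursors in which a small, disulfide-knotted clip domain precedes a trypsin-like protease domain. A cut between these parts activates them, and they act in chains in which one protease cuts the next. In insects the CLIPC proteases generally act upstream and CLIPB proteases at the end of a chain, where they cut prophenoloxidase to start melanization or cut the ligand of the Toll receptor. Most CLIPA proteins lack a working catalytic site and are called serine protease homologues. They act as cofactors or regulators of the cutting, and serpins stop the chain by trapping active proteases.

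Libraries held from 6865599 to 14878014 counts after 20E and from 7761718 to 13566683 after EtOH, and replicate 1 was the shallowest in both groups. Levels below are CPM, counts scaled to library size with TMM factors, and a mean is given with the SD of its 4 libraries. Fold changes are from edgeR's quasi-likelihood test, with Benjamini-Hochberg adjusted p-values over all 8180 genes that passed its expression filter, and a gene counted as called up to an adjusted p of 0.1. The standard error (SE) given with a log2 fold change restates that test on the log2 scale. Libraries with the same replicate number deviated together in both groups, so each gene was also tested with that number as a block, and the ratio within each such pair is given. Gene lists of the hemocyte (4 genes), fat body (2) and midgut (2) summed to 1733 to 4665, 2197 to 5036 and 0 to 1.45 CPM after 20E, and to 1392 to 3807, 1050 to 2711 and 0.0905 to 0.153 CPM after EtOH. AGAP000305 and AGAP009200 made up nearly all of the hemocyte sum, AGAP000305 at 1361.8 to 2179.5 CPM after 20E and 1378 to 3555.5 after EtOH. The hemocyte gene AGAP004977 had at most 1.46 CPM after 20E and 0.153 CPM after EtOH. Of these marker genes 3, 2 and 0 passed the filter in that order. None of these genes was called without the block. With the block edgeR gave the hemocyte genes collagen IV (AGAP009200), AGAP000305 and AGAP007045 log2 fold changes of 4.45 (adjusted p = 1.62e-05), -0.46 (0.0504) and -0.87 (0.0239), and the fat body genes AGAP001826 and AGAP004203 of 0.99 (7.36e-04) and -0.46 (0.0385). Both lists thus held genes that rose and genes that fell, and the part of such differences in the results below was not tested.

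Sua 4.0 cells transcribed most of the 34 listed CLIP genes. At least 1 count was found for 33 of the 34 genes, against 84.7% of all listed genes, and 25 passed the expression filter, against 59.4% of all listed genes. By subfamily, 8 of 11 CLIPA, 10 of 14 CLIPB and 7 of 9 CLIPC genes passed. The filter asks for about 10 counts in as many libraries as 1 group holds, so a gene can pass through 1 group alone, as *CLIPC6* did through the 20E libraries. AGAP011783 (CLIPA, 3L from 33254563 to 33255824) had 0 counts in all 8 libraries, which allows up to 0.0330 CPM when 3 counts over all libraries are taken as the limit, for counting error only. The other genes below the filter were AGAP011787 and AGAP011781 of CLIPA with 4 and 28 counts in all, AGAP003246, AGAP003249, AGAP003252 and AGAP013442 of CLIPB with 9, 9, 8 and 44, and AGAP000571 and AGAP004719 of CLIPC with 5 and 11. AGAP003252 is also the only member whose span overlaps that of another gene, AGAP013184 on the opposite strand, which had 8 counts itself.

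**Figure D1:**
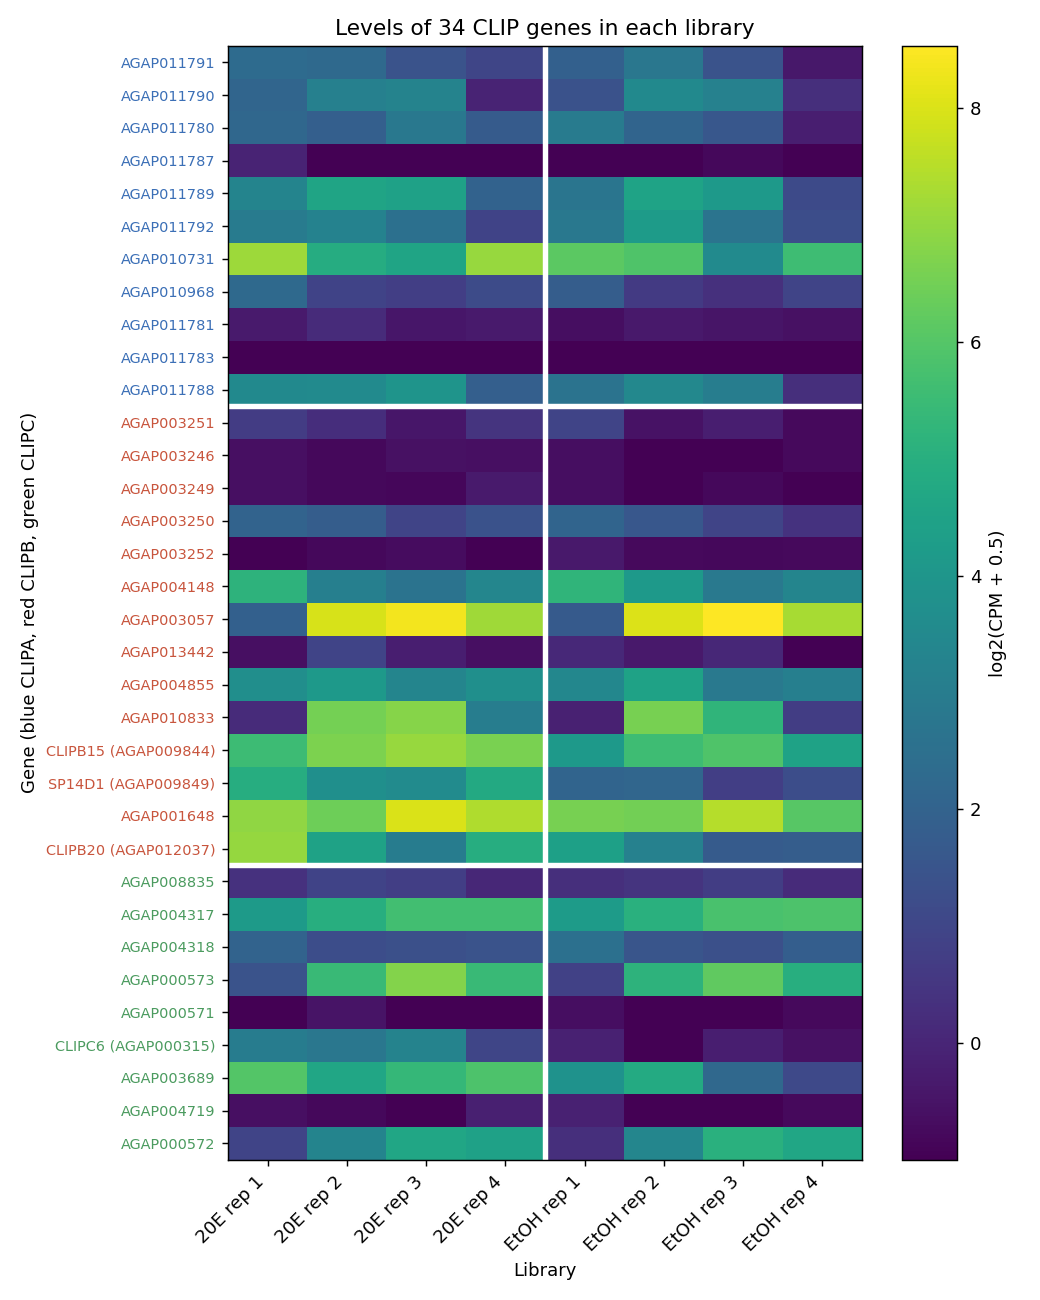
Levels of the 34 CLIP genes as log2(CPM + 0.5), with genes in rows (label colour gives the subfamily) and the 20E libraries left of the EtOH libraries. The same replicate looks alike in both groups for most genes, as for AGAP003057, which had 3.31 CPM in 20E replicate 1 and 2.71 CPM in EtOH replicate 1 but 146 CPM or more in every other library.

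Per kilobase of gene span, introns included, the levels of CLIP genes covered a wide range. AGAP001648 (CLIPB, 2R from 7278772 to 7280475) had the highest mean level per kb in both groups, 92.7 ± 42.6 CPM per kb after 20E and 63.1 ± 28.2 after EtOH (SD, n = 4 each). After EtOH it was followed by AGAP003057 of CLIPB (56.0 ± 44.7 CPM per kb), AGAP010731 of CLIPA (35.03 ± 19.1), *CLIPB15* (26.1 ± 14.4) and AGAP010833 of CLIPB (22.9 ± 30.3). These 5 neighbours in the order did not separate, because the libraries of each spread over those of the next. The sixth, AGAP000572 of CLIPC, averaged 13.9 ± 11.8 CPM per kb after EtOH. The same 5 genes led after 20E, where *CLIPB15* was second at 67.9 ± 25.9 CPM per kb. *CLIPB20* stood at rank 6 after 20E and 12 after EtOH, and *CLIPC6* stood at rank 17 after 20E and 26 after EtOH. The only CLIPA gene among the 8 highest in either group was AGAP010731.

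20E treatment was followed by higher levels of a few protease genes of CLIPB and CLIPC. Without the block 2 members were called, *SP14D1* and *CLIPC6*, both higher after 20E, which is 8% of the 25 tested members, where edgeR called 0.795% of all tested genes (0.513% higher and 0.281% lower). With the replicate block 8 members were called, all higher, which is 32% of those tested, where it called 17.4% of all tested genes (8.34% higher and 9.11% lower). The 8 were *CLIPC6*, *SP14D1*, *CLIPB15*, *CLIPB20*, AGAP003689, AGAP000573, AGAP010833 and AGAP011788. No member was called lower by edgeR's quasi-likelihood test with or without the block, by its exact or likelihood ratio tests, by DESeq2 or by limma-voom, nor at an unadjusted p under 0.05 in any of them. At an unadjusted p under 0.05 the quasi-likelihood test had 5 members higher and 0 lower, and 6.81% of all tested genes in either direction. The study picked *CLIPC6*, *SP14D1*, *CLIPB15* and *CLIPB20* from these libraries, so neither their direction nor their calls here are independent evidence. They include both members called without the block, and the shares of 8% and 32% count them. *CLIPC6* was also among the tested members only through its 20E counts, so its part in these shares is no support either.

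**Figure D2:**
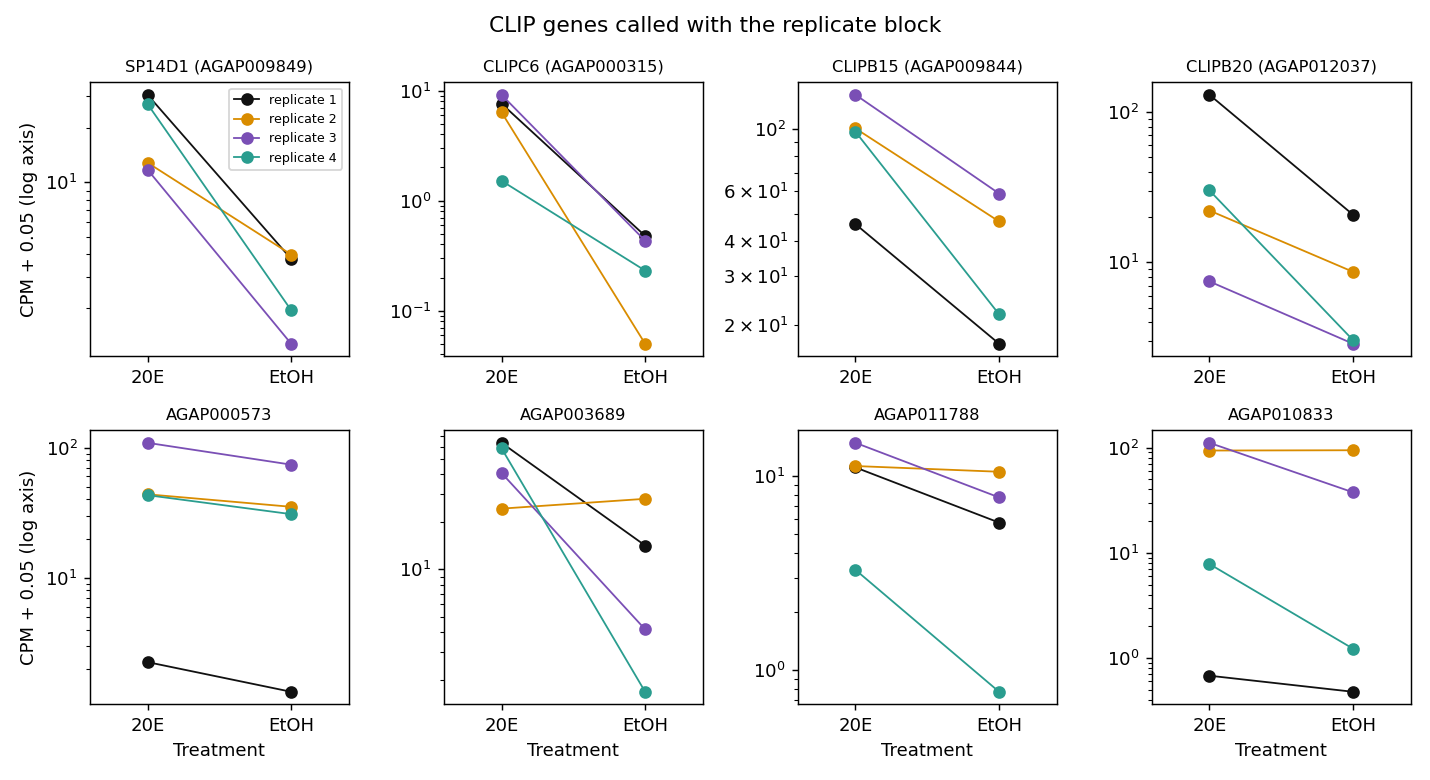
CPM (plus 0.05, log axis, each panel with its own scale) of the 8 CLIP genes called with the replicate block, 20E left and EtOH right, with a line joining libraries of the same replicate number. *SP14D1* and *CLIPC6* separate the groups completely, whereas in AGAP000573 the lines lie far apart and slope little, with log2 ratios from 0.31 to 0.60.

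*CLIPC6* (AGAP000315, X from 10090324 to 10093280, plus strand of AgamP4) encodes a protease of the subfamily that generally acts upstream. The 20E libraries 1 to 4 held 48, 91, 151 and 19 of its counts, and the EtOH libraries 1 to 4 held 3, 0, 5 and 2. The lowest 20E library stood above the highest EtOH library. Scaled to CPM, the 20E libraries stood at 7.56, 6.29, 9.10 and 1.46, the EtOH libraries at 0.428, 0, 0.382 and 0.181. edgeR's quasi-likelihood test gave a log2 fold change of 4.60 (SE 0.83, adjusted p = 0.0664), and 4.59 (SE 0.50, adjusted p = 3.58e-04) once the replicate block was added. It rests on 10 EtOH counts in all. Without the block its call was lost on dropping 20E replicate 1 (adjusted p = 0.108), 2 (0.178) or 3 (0.174), or EtOH replicate 1 (0.119), 3 (0.212) or 4 (0.267), all in edgeR, and also in limma-voom (0.211).

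*SP14D1* (AGAP009849, 3R from 44185219 to 44199631, plus strand) was the other member whose groups separated, here with counts in every library. The 20E libraries 1 to 4 stood at 30.5, 12.8, 11.7 and 27.1 CPM, the EtOH libraries at 3.71, 3.92, 1.22 and 1.90 CPM. The groups did not overlap, and the pairs gave log2 ratios of 2.88, 1.59, 2.83 and 3.52. *SP14D1* and *CLIPC6* were the only 2 of the 25 tested members with all 20E libraries above all EtOH libraries, which held for 2.18% of all tested genes. *CLIPC6* passed the expression filter through its 20E libraries alone, so its place in this count is no support for a direction. In 0 members were all 20E libraries below the EtOH libraries, against 2.56% of tested genes. The log2 fold change of *SP14D1* was 2.94 (SE 0.49, adjusted p = 0.0515 in edgeR), and 2.90 (SE 0.30, adjusted p = 3.16e-04) with the block. Without the block it was not called without 20E replicate 4, EtOH replicate 3 or EtOH replicate 4 (adjusted p of 0.167, 0.145 and 0.215, edgeR).

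*CLIPB15* and *CLIPB20* rose within every pair but overlapped between groups. *CLIPB15* (AGAP009844, 3R from 44101481 to 44102868) is a protease linked to mosquito defence against bacteria and malaria parasites. Its 20E libraries 1 to 4 stood at 45.8, 100.6, 132.7 and 97.9 CPM, its EtOH libraries at 17.1, 46.8, 58.9 and 21.8 CPM. Only 20E replicate 1 fell inside the EtOH range. Its log2 fold change was 1.45 (SE 0.16) with the replicate block, at an adjusted p of 4.36e-04, and 1.38 (SE 0.45) without it, at an adjusted p of 0.449 (edgeR). *CLIPB20* (AGAP012037, 3L from 36799960 to 36801498, minus strand) stood at 130.2, 22.1, 7.42 and 30.05 CPM in 20E libraries 1 to 4, against 20.7, 8.60, 2.82 and 2.99 CPM in EtOH libraries 1 to 4. Replicate 1 was the highest in both groups, and the EtOH library of that replicate exceeded 20E replicate 3. Its log2 fold change was 2.20 (SE 0.29, adjusted p = 0.00109) with the block and 2.45 (SE 0.95, adjusted p = 0.624) without it in edgeR. Without the block, leaving out 20E replicate 1 gave *CLIPB20* a log2 fold change of 1.20 and leaving out EtOH replicate 1 one of 3.29. With the block, *CLIPC6*, *SP14D1*, *CLIPB15* and *CLIPB20* were called whichever of the 4 pairs was left out.

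The other 4 members called with the block each lost the call without at least 1 pair. AGAP003689 (CLIPC, 2R from 42042818 to 42045095) had 63.3, 24.2, 40.8 and 58.4 CPM after 20E, and 14.1, 27.9, 4.12 and 1.63 CPM after EtOH. The highest library was 2.61 times the lowest after 20E and 17.2 times the lowest after EtOH, and in pair 2 the direction was the opposite. The pairs gave log2 ratios of 2.13, -0.20, 3.16 and 4.79, and the blocked log2 fold change was 2.34 (SE 0.64, adjusted p = 0.0422 in edgeR, 0.166 without pair 3). Without pair 2 the blocked log2 fold change was 3.32. In the fit without the block AGAP003689 was at 1.97, and at 2.85 when EtOH replicate 2 was dropped. AGAP000573 (CLIPC, X from 10098582 to 10104455) had 2.20, 43.7, 108.7 and 43.1 CPM after 20E, and 1.28, 35.04, 73.9 and 30.8 CPM after EtOH. The groups overlapped, yet the log2 ratios within the pairs were alike, 0.60, 0.31, 0.55 and 0.48. Its blocked log2 fold change was 0.47 (SE 0.10, adjusted p = 0.0172 in edgeR, 0.149 without pair 3).

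AGAP010833 (CLIPB, 3L from 11652564 to 11654020) spanned the widest range of the called members, its highest library at 176 times the lowest after 20E and 221 times after EtOH. It had 0.630, 93.8, 111.05 and 7.78 CPM after 20E, and 0.428, 94.4, 37.5 and 1.18 CPM after EtOH. Pairs 3 and 4 carried the difference, with log2 ratios of 1.55 and 2.30 against 0.28 and -0.01 in pairs 1 and 2. Its blocked log2 fold change was 1.04 (SE 0.33, adjusted p = 0.0754 in edgeR), and it was not called without pair 3 (0.371) or pair 4 (0.164) or by DESeq2 with the block (0.195). Without pair 2 its blocked log2 fold change was 1.81. In the fit without the block AGAP010833 was at 0.68, at 0.032 when 20E replicate 3 was dropped and at 2.01 when EtOH replicate 2 was dropped. AGAP011788 (3L from 33271412 to 33273378) was the only CLIPA gene called. It had 11.02, 11.2, 14.8 and 3.24 CPM after 20E, and 5.70, 10.5, 7.71 and 0.724 CPM after EtOH, a blocked log2 fold change of 0.84 (SE 0.27, adjusted p = 0.0717 in edgeR). That call was lost without pair 1, 3 or 4, at adjusted p of 0.140, 0.227 and 0.166.

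The 17 tested members not called in either fit had log2 fold changes from -0.52 to 0.78 without the block, and blocked adjusted p-values from 0.104 to 0.976 (edgeR). The lowest of these was that of AGAP001648, the CLIPB gene with the highest level per kb. AGAP001648 had 124, 84.7, 254 and 169 CPM after 20E, and 95.6, 91.2, 177 and 66.4 CPM after EtOH. edgeR gave it a log2 fold change of 0.53 (SE 0.19) with the block, and it was called by DESeq2 with the block (adjusted p = 0.0506) and in edgeR's blocked fit without the expression filter (0.0264) or without pair 2 (0.0249). AGAP010731, the most abundant CLIPA gene, had 140.6, 29.2, 23.2 and 132.5 CPM after 20E, and 70.5, 60.1, 11.4 and 46.9 CPM after EtOH. It was higher after 20E in pairs 1, 3 and 4 and lower in pair 2, with a blocked log2 fold change of 0.64 (SE 0.34, adjusted p = 0.264), and without pair 2 it was called at a log2 fold change of 1.19 (adjusted p = 5.70e-04, edgeR). AGAP004317 (CLIPC, 2R from 54396441 to 54400861) was lower after 20E in all 4 pairs, with log2 ratios from -0.23 to -0.05 and a blocked log2 fold change of -0.13 (SE 0.10, adjusted p = 0.438).

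Set side by side, the generally catalytic subfamilies CLIPB and CLIPC held most of the calls, while the middle of the distribution was similar. With the block, edgeR called 7 of 17 tested CLIPB and CLIPC genes (41.2%) and 1 of 8 tested CLIPA genes (12.5%), beside 17.4% of all tested genes. Without it the counts were 2 of 17 and 0 of 8, beside 0.795% of all tested genes. CLIPB and CLIPC also made up 17 of the 25 tested members. Over all listed members, the median of the mean paired log2 ratio (CPM + 0.5) was 0.22 for the 23 CLIPB and CLIPC genes, with a range from -0.30 to 2.96, and 0.32 for the 11 CLIPA genes, with a range from -0.33 to 0.87. CLIPB alone had a median of 0.29 and CLIPC alone of 0.07. Over tested members only, the medians were 0.45 for CLIPB, 0.13 for CLIPC, 0.37 for both together and 0.40 for CLIPA, and the median over all tested genes was 0.01. The subfamilies thus differed in their upper ends, where *CLIPC6* (mean log2 ratio 2.96), *SP14D1* (2.70), AGAP003689 (2.47), *CLIPB20* (2.08), *CLIPB15* (1.45) and AGAP010833 (1.03) stood above every CLIPA gene. The study picked *CLIPC6*, *SP14D1*, *CLIPB15* and *CLIPB20* from these libraries, and all of them count here as CLIPB or CLIPC. The calls and the upper end of CLIPB and CLIPC are therefore not independent evidence, and the larger class has more chances of a high value. The difference between subfamilies was not tested, since their members are not replicates. CLIPA proteins generally lack protease activity, but the deposited table holds no sequence by which single members could be placed as catalytic or not.

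**Figure D3:**
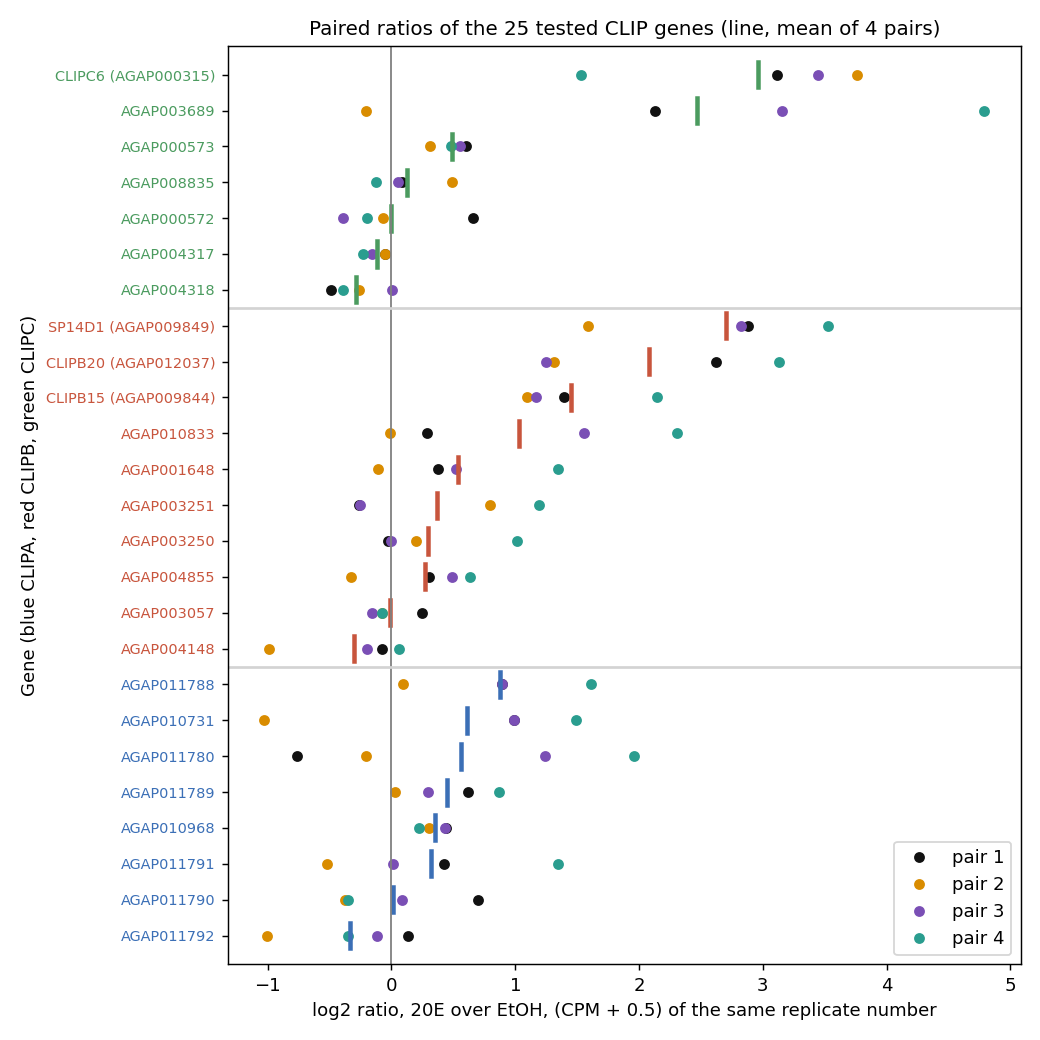
log2 ratio of 20E over EtOH within each of the 4 pairs (points) and their mean (line) for the 25 tested CLIP genes, grouped by subfamily. In most rows pair 4 lies furthest right and pair 2 furthest left, and the means of 6 CLIPB and CLIPC genes exceed 1.

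Pairs differed in how far CLIP genes moved. Pair 4 gave the highest of the 4 ratios in 15 of the 25 tested members, and pair 2 the lowest in 14, whereas over all tested genes pair 4 was the highest in 24.98% and pair 2 the lowest in 25.5%. The median log2 ratio of the tested members was 0.42, -0.05, 0.43 and 1.02 in pairs 1, 2, 3 and 4, and the medians of all tested genes lay between 0.00 and 0.01. Pair 4 had the highest and pair 2 the lowest median in both classes, with medians of 1.11 for CLIPA and 1.02 for CLIPB and CLIPC in pair 4, and of -0.29 and -0.01 in pair 2. In all 4 pairs 8 tested members were higher after 20E (17.0% of all tested genes were) and 1 was lower (16.2%). Besides *CLIPC6*, *SP14D1*, *CLIPB15*, *CLIPB20*, AGAP000573 and AGAP011788, the 8 included AGAP011789 and AGAP010968 of CLIPA, at blocked adjusted p of 0.194 and 0.388 (edgeR).

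Replicate number took a larger share of the variation than treatment in most CLIP genes. The sum of squares of log2(CPM + 0.5) over the 8 libraries was split into treatment, replicate number and a remainder. Replicate number has more levels than treatment, so its share would tend to be larger even if neither had an effect. Replicate number took a median of 79.7% over the 25 tested members and treatment 7.13%, against 76.9% and 6.57% over all tested genes. Treatment took the larger share in 4 members, *SP14D1* (84.1%), *CLIPC6* (82.4%), AGAP003689 (56.1%) and *CLIPB15* (55.2%), and in 11% of all tested genes. At the other end, replicate number took 99.9% in AGAP003057 and 98.8% in AGAP004317.

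**Figure D4:**
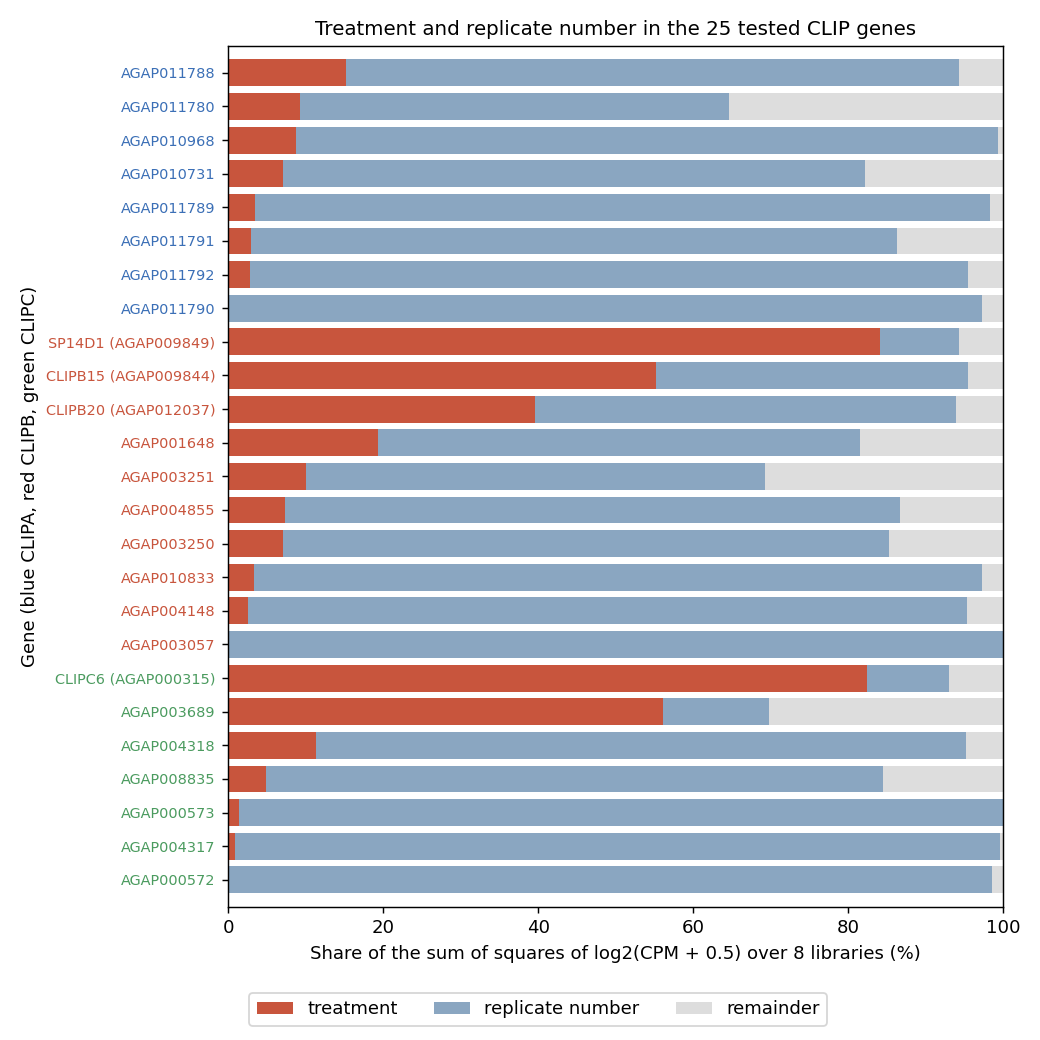
Share of the sum of squares of log2(CPM + 0.5) taken by treatment (red), replicate number (blue) and the remainder (grey) in each of the 25 tested CLIP genes. Red exceeds blue only in *SP14D1*, *CLIPC6*, AGAP003689 and *CLIPB15*.

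Replicate 1 set 4 members apart, chosen after their values were seen. AGAP003057, AGAP010833, AGAP000573 and AGAP000572 had a log2 level in replicate 1 at least 2 below the mean of the other replicates in both groups, as did 1.56% of all tested genes. AGAP003057 (CLIPB, 2R from 31600189 to 31603686) had 3.31, 245, 332 and 146 CPM in 20E libraries 1 to 4, against 2.71, 258, 370 and 154 CPM in EtOH libraries 1 to 4. Its log2 ratios within the pairs lay between -0.16 and 0.25, with a blocked log2 fold change of -0.07 (SE 0.10, adjusted p = 0.693 in edgeR). AGAP000572 (CLIPC, X from 10095053 to 10096272) had 1.42, 9.34, 24.8 and 21.2 CPM after 20E, and 0.713, 9.81, 32.7 and 24.3 CPM after EtOH. *CLIPB20* was the only member with the reverse, a replicate 1 at least 2 above the others in both groups. AGAP004148 (CLIPB, 2R from 50743017 to 50744780) leaned the same way, at 35.6 CPM in 20E replicate 1 against 5.73 to 9.94 in the other 20E libraries, and at 37.5 CPM in EtOH replicate 1 against 6.64 to 16.7.

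Some neighbouring CLIP genes differed in their ratios of 20E over EtOH and others were alike, while some shared a replicate pattern. Members within 100 kb of each other formed 6 groups that held 24 of the 34 genes. *CLIPB15* and *SP14D1* on 3R were both higher after 20E, with mean paired log2 ratios of 1.45 and 2.70. AGAP004317 and AGAP004318 on 2R stood at -0.12 and -0.28. AGAP003057 and AGAP013442, also on 2R, stood at -0.02 and 0.19, the latter below the filter. On X, 4 CLIPC genes lie within 17.9 kb with no other gene between them. Their mean paired log2 ratios were -0.03 for AGAP000571, 2.96 for *CLIPC6*, 0.00 for AGAP000572 and 0.49 for AGAP000573. The pseudocount of 0.5 CPM exceeds every EtOH level of *CLIPC6* and lowers its ratio. AGAP000571 had 5 counts in all, so its ratio is held near 0 by the pseudocount. With the block *CLIPC6* and AGAP000573 were called and AGAP000572 was not, and AGAP000572 and AGAP000573 shared the low replicate 1 that *CLIPC6* lacked. On 3L, 9 CLIPA genes and 5 others lie within 47.9 kb, from 33242078 to 33290022. Of these 9, 6 passed the filter, and their mean paired log2 ratios ran from -0.33 for AGAP011792 to 0.87 for AGAP011788, with 0.01 for AGAP011790, 0.32 for AGAP011791, 0.45 for AGAP011789 and 0.56 for AGAP011780. The SD over the 4 pairs ran from 0.36 for AGAP011789 to 1.26 for AGAP011780, so these ratios were not clearly apart. In all 6 replicate 4 was the lowest library in both groups, from 0.462 CPM in AGAP011790 to 3.54 CPM in AGAP011789 after 20E, and from 0.271 CPM in AGAP011791 to 1.90 CPM in AGAP011792 after EtOH. The CLIPB group of 5 on 2R was little transcribed, and AGAP003250 and AGAP003251, the 2 that passed the filter, averaged 2.55 ± 0.948 and 0.721 ± 0.362 CPM after 20E and 2.12 ± 1.27 and 0.521 ± 0.615 CPM after EtOH (SD, n = 4 each). Fragments that mapped to several places were left out of the counts, so levels of closely similar neighbours are less certain.

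**Figure D5:**
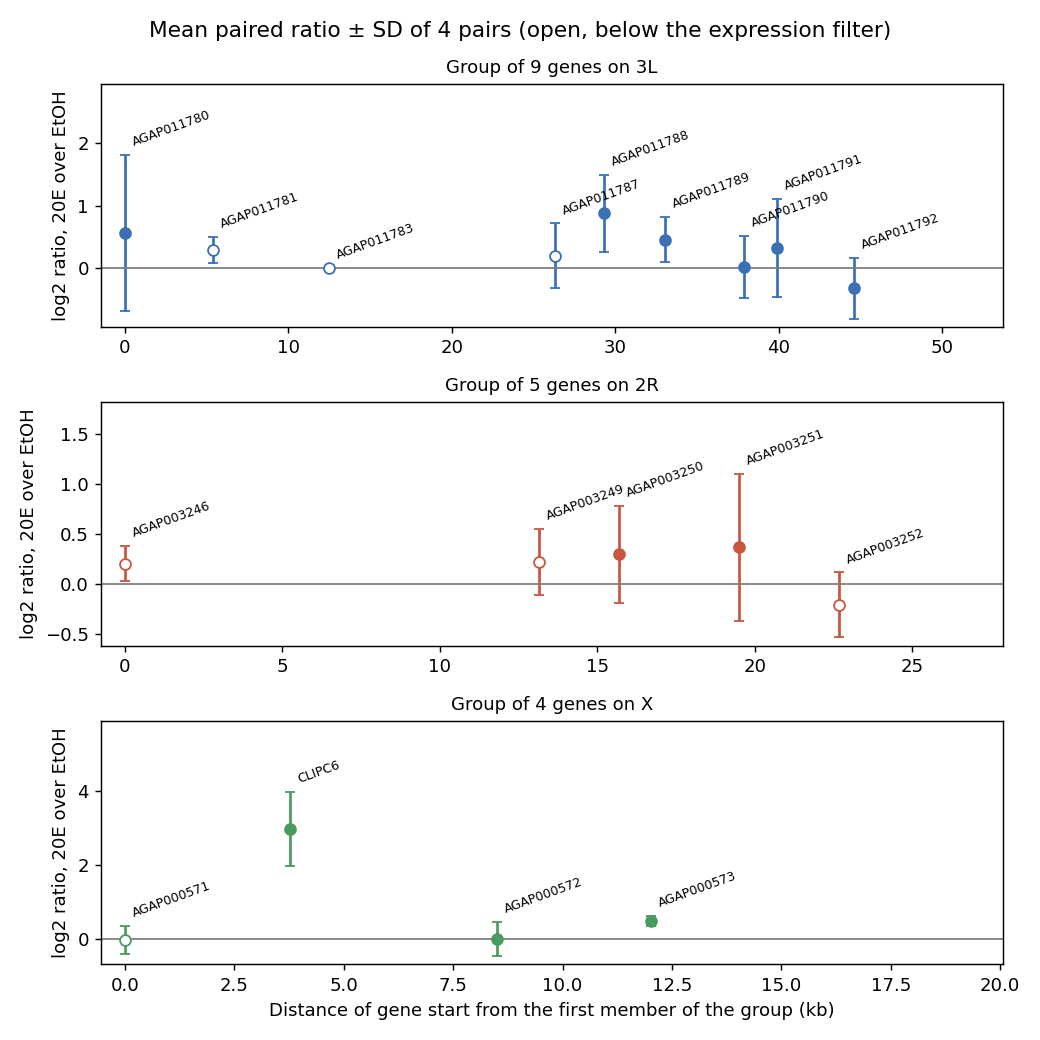
Mean paired log2 ratio of 20E over EtOH ± SD over 4 pairs against the distance of each gene start from the first member, for the 3 largest groups of neighbouring CLIP genes (open points did not pass the expression filter). *CLIPC6* at 2.96 stands above its neighbours on X, AGAP000571 to AGAP000573, which lie from -0.03 to 0.49.

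The remaining genes had blocked fold changes in both directions. Their mean levels ran from 0.979 CPM in AGAP008835 to 13.1 CPM in AGAP004855 after 20E, and from 0.833 to 11.7 CPM after EtOH. AGAP004855 (CLIPB) had a blocked log2 fold change of 0.27 (SE 0.19), AGAP008835 (CLIPC) of 0.21 (0.39), AGAP004318 (CLIPC) of -0.33 (0.27) and AGAP010968 (CLIPA) of 0.46 (0.31). None of these passed the test, with adjusted p of 0.416, 0.787, 0.497 and 0.388 in edgeR.

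Substrates and inhibitors of CLIP proteases, together with complement genes and lectins, were counted from a list of 21 identifiers. They were placed in these roles by the nomenclature of the species. Of 9 prophenoloxidases, the substrates cut at the end of the melanization chain, 4 passed the filter, and 1 was called higher without the block and 2 with it. The first was *PPO8* (AGAP004976), at 3.15, 11.9, 22.4 and 57.5 CPM after 20E and 1.14, 1.03, 0.916 and 0.452 CPM after EtOH (log2 fold change 4.75, SE 0.85, adjusted p = 0.0662 in edgeR). In *PPO8* too, pair 4 had the widest gap. The other was *PPO3* (AGAP004975), at 94.6, 146, 298 and 502 CPM after 20E and 67.9, 86.0, 106 and 64.9 CPM after EtOH (log2 fold change 1.42, SE 0.33, adjusted p = 0.0222 in edgeR with the block, and 0.326 without it). The study had picked *PPO3* from these libraries as raised by 20E, so its call here is not independent evidence. Of 7 serpins, the inhibitors, 6 passed, and 0 were called without the block, whereas 2 were called lower with it. Of 3 complement genes 2 passed and 1 was called higher with the block, and of 2 lectins 2 passed and 0 were called. In total 1 of 14 tested genes of this list was called without the block and 5 with it, 3 of them higher and 2 lower. The count with the block includes *PPO3*. Over all tested genes the shares were 0.795% without the block and 17.4% with it (8.34% higher and 9.11% lower).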

How the data were processed

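RNA-seq was performed on Sua 4.0 cells, 4 libraries after 20E and 4 after EtOH. The authors aligned reads with STAR 2.5.2b against AgamP4, counted fragments per gene with featureCounts and deposited whole-number counts without normalization, leaving out multimapped and chimeric fragments. The strand setting is not given in the sources used here, and the listed length is the whole gene span in 100% of genes.

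Counts were tested with edgeR 4.0.16 in R 4.3.3 (TMM, filterByExpr with a minimum count of 10 and total of 15, quasi-likelihood F test, two-sided, treatment as the only term, adjusted p of at most 0.1). The SE was obtained by dividing the size of the log2 fold change by the root of F. Deviations from group means correlated between libraries of the same number at 0.835, 0.728, 0.804 and 0.646, and at most at 0.0854 otherwise, so the numbers were taken to pair the libraries. This pairing comes from the data, as the methods speak of 4 independent biological replicates only. Within groups the lowest chi-square over its degrees of freedom was 65.3, so no library was a copy. Paired ratios used a pseudocount of 0.5 CPM. Alternatives were DESeq2 1.42.0, limma-voom (limma 3.58.1), edgeR's exact and likelihood ratio tests, other scaling, filters and priors, the replicate block and leaving out libraries. Fits were tested on simulated data. All 34 members are given, those called in either fit by library. Members and lists were chosen with earlier results of these data known.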

Additional observations from a re-analysis of the deposited data

Results flagged for a closer look

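Among the 25 tested CLIP genes in both groups (50 groups of 4 libraries), 1 library stood far from the rest of its group. AGAP004148 had 35.6 CPM in 20E replicate 1, against 5.73 to 9.94 CPM in the other 20E libraries, a gap of 0.859 of the whole range. Chance alone sets about 1 in 20 groups apart in this way.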

How the results depend on the processing

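edgeR's quasi-likelihood test without the replicate block called 65 genes and 2 CLIP members. Over single libraries left out, the counts ran from 16 to 65 genes and from 0 to 2 members, lowest for genes without EtOH replicate 4 and for members without EtOH replicate 3 or 4. The exact test, the likelihood ratio test and DESeq2 called 141, 147 and 195 genes, limma-voom 1 member, and a limit of 0.05 gave 32 genes and 0 members. The replicate block called 1427 genes and 8 members. Added after seeing the data, the block without the expression filter called 1540 and 9, and DESeq2 with the block 1290 and 8. Leaving out both libraries of a pair gave 77, 17, 16 and 4 genes for pairs 1 to 4 and 1, 0, 0 and 0 members without the block, and 1305, 1224, 844 and 870 genes and 7, 10, 4 and 6 members with it. The cause of these differences was not tested. RLE factors, the other filter, the robust prior and the newer quasi-likelihood version called 2 members each. The count of expressed members stayed between 23 and 28 over the other filters, and the median paired ratios kept their sign under every pseudocount, scaling and pair left out. The level order by coding length was not run.

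Of 712 alternative values for single members, 36 turned the sign, all of them in members not called there. With limma-voom AGAP003057 was at 0.0024 and AGAP000572 at 0.088 on the log2 scale. Over single libraries left out, the log2 fold change ran from -0.35 to 0.71 for AGAP011791, -0.42 to 0.50 for AGAP011790, -0.092 to 0.92 for AGAP011780, -0.093 to 0.77 for AGAP011789, -0.85 to 0.27 for AGAP011792, -0.066 to 0.95 for AGAP010968, -0.0079 to 0.66 for AGAP003250, -1.13 to 0.42 for AGAP004148, -0.58 to 0.40 for AGAP003057, -0.034 to 0.66 for AGAP004855, -0.39 to 0.085 for AGAP004317, -0.25 to 1.14 for AGAP000573 and -0.66 to 0.29 for AGAP000572. With whole pairs left out, AGAP011791 was at -0.14 without pair 1 and -0.10 without pair 4 (-0.075 with the block), AGAP011790 at 0.23 without pair 2 (0.20 with the block) and 0.048 without pair 4 with the block, and AGAP011780 at -0.15 without pair 3.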
